A study of Mus musculus with 70 samples.

Results

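This section describes the small RNA content of microglia in the adult mouse brain, set against that of the other cells of the same brains at 8 weeks of age. All 24 small RNA libraries labelled 8 weeks were used, of 70 in the series, and no measured value entered their choice. They came from 12 wild type C57BL/6 mice, 6 female and 6 male, with 1 CD45+ library and 1 CD45- library from each mouse. Whole brains were digested to single cells, and the CD45+ fraction was captured by immunopanning on an antibody-coated dish. It is called microglia here, although CD45 is carried by all white blood cells, so that monocytes and macrophages can be caught with it. The CD45- fraction is the remaining suspension of neurons, glia and vascular cells, called bulk cells. All mice were untreated. Mice of postnatal day 6 (P6, 10 mice in the fit) and postnatal day 15 (P15, 12 mice), handled in the same way, shared the filter, scaling and variance estimates of the fit and are described only where the adult difference was compared with the younger ones.

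MicroRNAs (miRNAs) are short RNAs cut from hairpin precursors that guide silencing complexes to messenger RNAs. Pairing relies chiefly on the seed, the stretch from base 2 to base 8 of the mature strand, so miRNAs with 1 seed are grouped as a family. Each precursor has a 5p and a 3p arm, and often a single arm accumulates while the other is degraded. Many miRNA genes lie in clusters that are transcribed together, and many cell lineages carry characteristic miRNAs, such as miR-223 and miR-142 in blood cells and miR-124 in neurons.

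The mature sequences on which the results turn are given 5′ to 3′ from RefSeq (GRCm38.p6), with the seed in capitals. The first set holds the leading miRNAs of the microglial side, the second those of the bulk side, the third a seed shared by members that were all higher in microglia, and the last a pair of seeds that each had a member called higher and a member called lower.
miR-223-3p: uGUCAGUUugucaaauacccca
miR-142a-3p: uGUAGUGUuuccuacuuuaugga
miR-146a-5p: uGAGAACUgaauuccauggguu
miR-511-3p: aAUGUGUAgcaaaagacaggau
miR-455-3p: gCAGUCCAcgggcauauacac
miR-322-5p: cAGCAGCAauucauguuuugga
miR-16-5p: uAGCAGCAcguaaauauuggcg
miR-219a-5p: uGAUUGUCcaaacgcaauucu
miR-338-3p: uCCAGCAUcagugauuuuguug
miR-136-5p: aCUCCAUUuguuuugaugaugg
miR-127-3p: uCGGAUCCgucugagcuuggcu
miR-17-5p: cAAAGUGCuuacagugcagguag
miR-20a-5p: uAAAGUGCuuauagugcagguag
miR-93-5p: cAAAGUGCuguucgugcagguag
miR-106b-5p: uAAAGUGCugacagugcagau
miR-99a-5p: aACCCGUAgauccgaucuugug
miR-100-5p: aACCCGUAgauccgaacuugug
miR-10a-5p: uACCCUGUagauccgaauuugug
miR-10b-5p: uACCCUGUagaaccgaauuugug

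Adult microglia and bulk cells differed in a large share of their miRNAs. Of 1072 features tested, 227 (21.2%) were higher and 254 (23.7%) lower in microglia, 44.9% in either direction. The test was limma-voom with TREAT, which asks whether a difference exceeds 2-fold, at a Benjamini-Hochberg FDR of 0.05 over all features. Of the 227 higher features, 23 were not higher in all 12 mice, and of the 254 lower features 23 were not lower in all 12. The median log2 fold change over all features was -0.10. With the 8-week libraries fitted on their own, 839 features were tested, 256 were higher and 236 lower, and the median was 0.15, so that the balance of the directions and the sign of the median depended on the libraries fitted. Features higher in microglia held 30.1% ± 2.64 (SD, n = 12) of microglial counts and 6.32% ± 0.589 (SD, n = 12) of bulk counts. Those lower in microglia held 5.16% ± 1.47 (SD, n = 12) and 29.4% ± 1.59 (SD, n = 12). The features that were not called held close to the same share on both sides, 64.8% ± 2.74 and 64.3% ± 1.38 (SD, n = 12 each).

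Library totals were 4244639 to 5982922 counts in microglia and 3141193 to 6447373 in bulk cells, and 3 counts, taken as the detection floor, equalled 0.501 to 0.707 and 0.465 to 0.955 CPM (counts scaled to a library total of 1000000). The first principal component held 63.2% of the variance and separated the fractions without overlap. Levels are fractions of a library, so that fewer cells of a type and less RNA per cell cannot be told apart. Neuronal miRNAs were present in the microglial libraries at 1.83% to 6.15% of counts, with the highest share in male mouse 3 and the next at 3.48%. Without this mouse 228 features were higher and 255 lower. The share of these neuronal counts that came from carried-over bulk RNA was not tested.

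**Figure D1:**
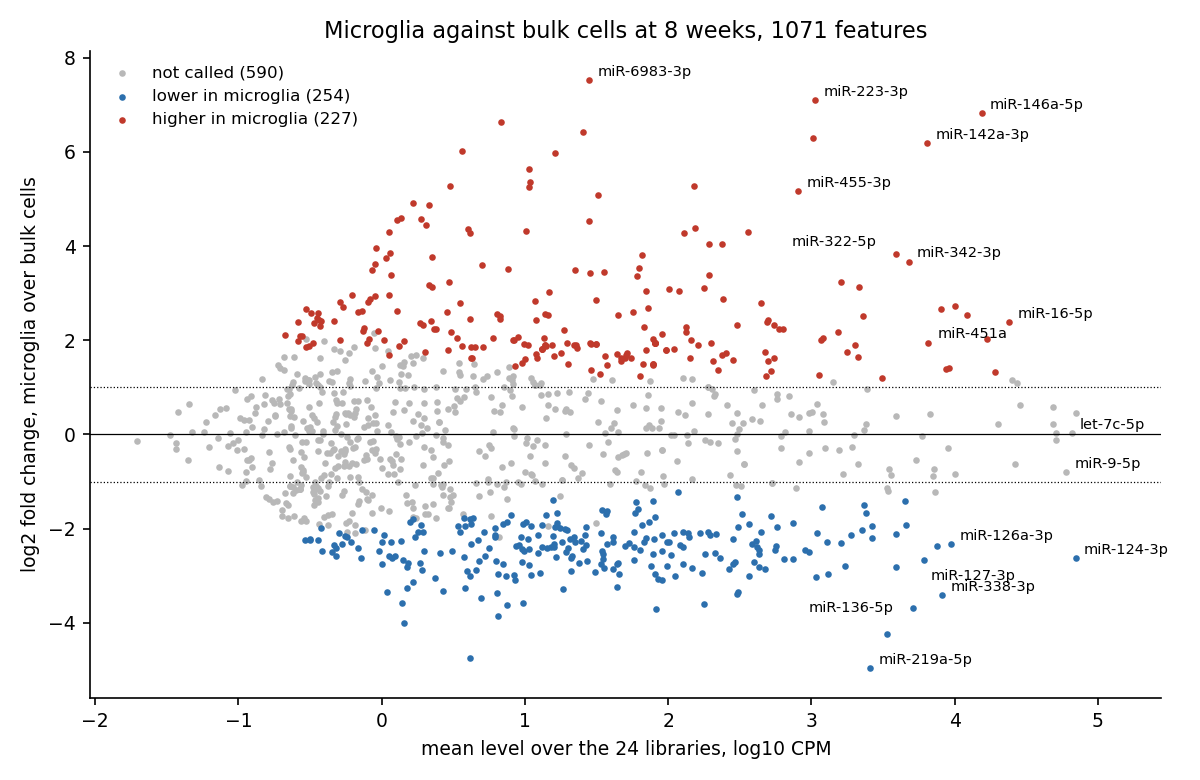
Each point is 1 of the 1071 features with a count at 8 weeks, by mean level over the 24 libraries (horizontal axis, log10 CPM) and log2 fold change of microglia over bulk cells (vertical axis), coloured by call, with dotted lines at a 2-fold difference. The features higher in microglia reach 7.52 and those lower reach -4.97.

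The most abundant miRNAs were largely those shared by both fractions. miR-181a-5p, broadly expressed in brain and in lymphoid cells, led in microglia at 79042 ± 8526 CPM (SD, n = 12), against 60674 ± 5437 in bulk cells, and was not called (log2 fold change 0.45 ± 0.08 SE). let-7c-5p, of the let-7 family that marks differentiated cells, was at 64772 ± 9058 and 66334 ± 6765 CPM (0.02 ± 0.10). miR-26a-5p was at 47468 ± 4322 and 53972 ± 4958 CPM, and miR-29b-3p at 51501 ± 9321 and 46120.2 ± 6387. These ranges overlapped between fractions for let-7c-5p, miR-26a-5p and miR-29b-3p, whereas the lowest microglial library of miR-181a-5p (69431 CPM) lay above the highest bulk library (66648 CPM). The leading feature of bulk cells was miR-124-3p, the major neuronal miRNA, at 120148 ± 19309 CPM. In microglia it was at 19595 ± 8799 CPM and was called lower (-2.62 ± 0.15). Counts of different miRNAs within a library also carry ligation preferences, so this order is one of read counts and not of molecules.

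The myeloid miRNAs were strongly enriched in microglia. Of 24 members tested of a list of miRNAs known from myeloid cells, hosted in myeloid genes or induced by inflammatory signals, 20 were higher, 2 lower and 2 were not called, with a median of 3.64 against -0.10 over all features. Together they made up 12.1% ± 1.26 (SD, n = 12) of microglial and 3.22% ± 0.432 of bulk counts. Of all features 21.2% were higher. The list holds miRNAs that other brain cells also express, such as miR-24, miR-27a and miR-21a. It was chosen with earlier results of these data known, so its counts are no independent test of enrichment. The defining markers miR-223-3p, miR-142a-3p and miR-142a-5p were all higher.

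miR-223-3p is a myeloid miRNA that restrains neutrophil activation. Its hairpin (chrX:96242817-96242926) overlaps an exon of F630028O10Rik, which is noncoding. It had a lowest, median and highest microglial library of 1533, 2173 and 2616 CPM. The bulk libraries were at 12.5, 15.5 and 23.6 CPM, so that the fractions were far apart (log2 fold change 7.10 ± 0.14 SE, limma-voom adjusted p = 5.46e-47, higher in 12 of 12 mice). Its other arm, miR-223-5p, was at 8.69, 11.3 and 22.5 CPM in microglia and had 3 counts in all in the 12 bulk libraries. miR-142a-3p (chr11:87756864-87756927, intron of Mir142hg), expressed throughout blood lineages, was at 7635, 12873 and 15486 CPM in microglia and 128.6, 175 and 266 in bulk cells (6.19 ± 0.13, adjusted p = 3.49e-45 by limma-voom). miR-142a-5p differed to the same extent, by 6.30 ± 0.18. Both arms of this hairpin were thus read in high numbers on the microglial side.

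miR-146a-5p acts as a brake on Toll-like receptor signalling, and its hairpin (chr11:43374397-43374461) overlaps no further annotated gene. Its microglial libraries were at 21097, 31040.2 and 39152 CPM and its bulk libraries at 144.2, 289 and 415 CPM (6.82 ± 0.14 SE, limma-voom adjusted p = 7.15e-47). Its paralogue miR-146b-5p, from chromosome 19 and with the same seed, was also higher but much less so, at 304 ± 47.9 against 107 ± 16.8 CPM (SD, n = 12; 1.57 ± 0.10). The sequences of the paralogues differ near the 3′ end, and reads shorter than that could be assigned to either. miR-511-3p (chr2:14261003-14261081), encoded in an intron of the macrophage mannose receptor gene Mrc1, was at 37.0, 48.1 and 68.4 CPM in microglia against 0, 0.495 and 1.91 (6.43 ± 0.41). miR-6983-3p, whose hairpin lies within the microglial growth factor receptor gene Csf1r, had the largest log2 fold change of the named miRNAs at 7.52 ± 0.40, with 55.7 ± 8.92 CPM in microglia and 18 counts in all in bulk cells. Most of its bulk libraries lay under the detection floor, so its rank above miR-223-3p is not secure. Of the 227 higher features, 10 had no count in any bulk library, and their fitted fold changes are no bounds.

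**Figure D2:**
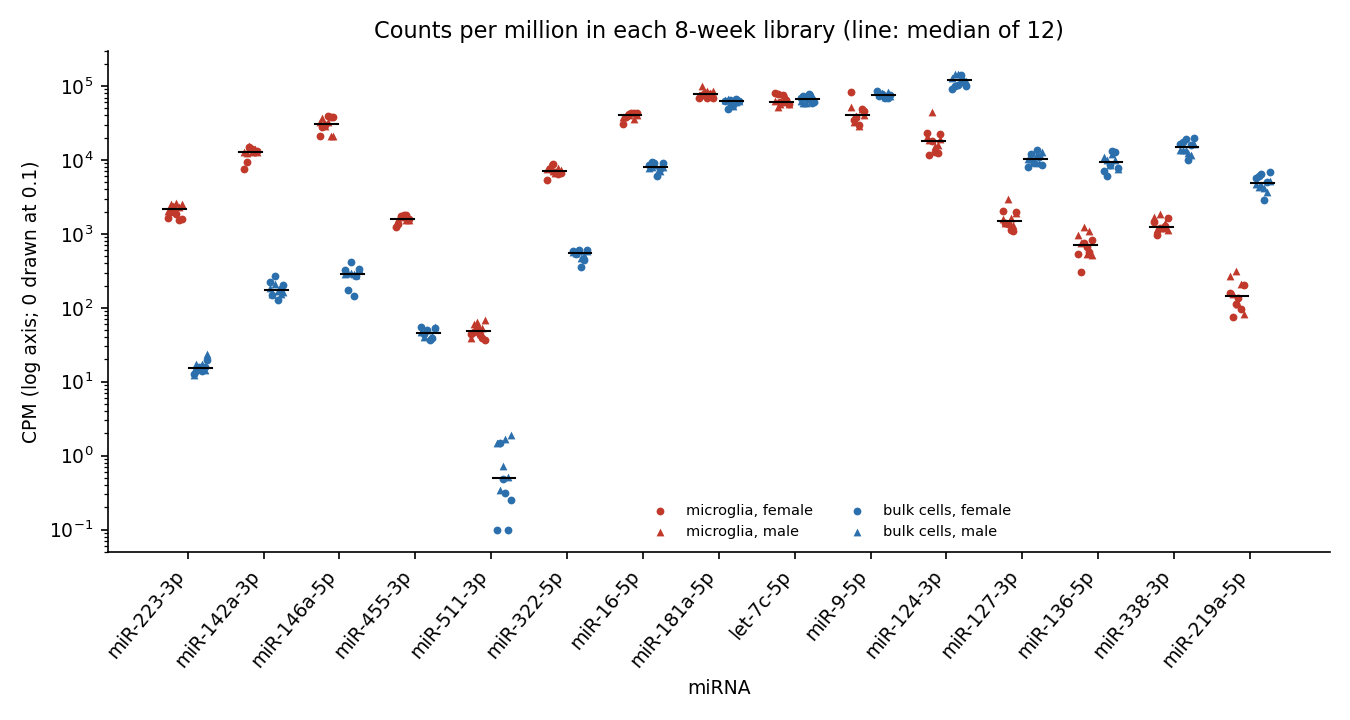
CPM (log axis) of 15 miRNAs in each of the 24 libraries at 8 weeks, microglia in red and bulk cells in blue, females as circles and males as triangles, with the median of 12 as a line. The fractions do not overlap for miR-223-3p through miR-181a-5p, nor for miR-124-3p through miR-219a-5p, and the medians of let-7c-5p are 61437 and 66123 CPM.

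Further members followed. miR-342-3p, encoded in an intron of Evl in mammals, was at 7005, 8895 and 10776 CPM in microglia and 479, 724 and 919 CPM in bulk cells (3.67 ± 0.12 SE). miR-155-5p (chr16:84714140-84714204, exon of Mir155hg), an inflammatory miRNA induced by Toll-like receptor ligands, was less abundant, at 81.3, 101 and 176 against 20.6, 32.2 and 44.6 CPM (1.79 ± 0.13). miR-21a-5p was not called (7568 ± 1364 against 5873 ± 1233 CPM, SD, n = 12), while its other arm miR-21a-3p was higher (34.4 ± 10.7 against 9.53 ± 3.22, log2 fold change 1.89 ± 0.23). miR-150-5p, characteristic of mature lymphocytes, went against the list and was lower in microglia, at 1202, 2254 and 4873 against 4496, 6172 and 9323 CPM (-1.41 ± 0.17, limma-voom adjusted p = 0.0221), with overlapping ranges. The second member that was lower, miR-24-1-5p, is described with its paralogue below.

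Outside the myeloid list, miR-455-3p, a target of the study's qPCR, was abundant in microglia and scarce in bulk cells. Its mature strand (chr4:63256904-63256924) lies within the collagen gene Col27a1, in an intron. It was at 1240.1, 1598 and 1814 CPM in microglia and 36.3, 45.8 and 55.2 CPM in bulk cells (5.17 ± 0.10 SE, limma-voom adjusted p = 7.15e-47). Its other arm, miR-455-5p, was at 297 ± 45.8 against 8.24 ± 2.72 CPM (SD, n = 12; 5.27 ± 0.15). miR-7219-3p was among the 10 largest differences with at least 10 CPM (5.64 ± 0.34), at 20.9 ± 6.01 against 0.499 ± 0.578 CPM. miR-191-5p and miR-425-5p, neighbours on chromosome 9, were at 26783 ± 2256 against 6898 ± 560.3 CPM (2.02 ± 0.07) and 903 ± 92.5 against 189 ± 17.7 CPM (2.32 ± 0.07).

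The miR-17-92 cluster and its paralogues, best known as promoters of cell cycle progression, formed a further enriched group. Of 25 members tested 19 were higher, beside 21.2% of all features, and none was lower. The median log2 fold change was 2.24, against -0.10 over all features. The joint share of the members was 1.90% ± 0.175 (SD, n = 12) of microglial against 0.351% ± 0.0541 of bulk counts. All 9 tested members read from the cluster on chromosome 14 (chr14:115043671-115044506, in Mir17hg) alone were higher. miR-17-5p was at 2265, 2942 and 3387 CPM in microglia and 219.2, 329.5 and 395 CPM in bulk cells (3.23 ± 0.12 SE). miR-20a-5p was at 3838 ± 448.3 against 459 ± 68.03 CPM (SD, n = 12; 3.14 ± 0.13) and miR-92a-3p at 3885 ± 518 against 714 ± 137.98 CPM (2.53 ± 0.13). From the chromosome 5 paralogue in Mcm7, a gene of the replicative helicase, miR-93-5p (3165 ± 437 against 892 ± 171 CPM; 1.91 ± 0.11) and miR-106b-5p (1848 ± 232 against 485.6 ± 72.7 CPM; 2.0001 ± 0.11) were higher. Of the 8 seed families with 4 or more tested members, that of seed AAAGUGC was the only one with every member called, 6 of 6 higher. The chromosome X paralogues miR-20b-5p (16.5 ± 4.28 against 4.63 ± 1.61 CPM) and miR-106a-5p (7.03 ± 1.76 against 1.28 ± 0.457 CPM) belong to it too, but they differ in few bases from the abundant miR-20a-5p and miR-17-5p, and reads could be split between them.

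The miR-15/16 family, which represses cyclins and BCL2, was higher in 11 of 15 tested members, beside 21.2% of all features. Its median log2 fold change was 2.39. The members include arms of 1 hairpin, and also miR-322 and miR-503, which are described again below. miR-16-5p, read from hairpins on chromosomes 14 and 3, was at 30546, 40827 and 43468 CPM in microglia against 6111, 8091 and 9408 CPM in bulk cells (2.39 ± 0.08 SE). miR-15a-5p was at 11840.5, 18315 and 18898 against 2030.4, 2699.9 and 3439 CPM (2.73 ± 0.09). miR-15a and 1 of the hairpins of miR-16 lie in Dleu2 on chromosome 14, and the other hairpin of miR-16 lies in an intron of Smc4 on chromosome 3, so that the counts of miR-16-5p cannot be assigned to either gene. The members from a further cluster on chromosome 11 went the other way. miR-195a-5p (471 ± 114 against 1085 ± 213 CPM, SD, n = 12) had a log2 fold change of -1.14 ± 0.14 and miR-497a-5p (343 ± 83.6 against 726 ± 157 CPM) of -1.02 ± 0.16, neither past the threshold, and miR-497a-3p was lower (-2.07 ± 0.21). The seed AGCAGCA was therefore carried by 4 miRNAs that were higher in microglia and by 2 with negative differences that were not called.

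The highest fold changes of this family belonged to a cluster on chromosome X (chrX:53047997-53054349, minus strand) that contains miR-322, miR-503, miR-351, miR-542 and miR-450. Of 12 features read from it alone, 11 were higher, beside 21.2% of all features, and none was lower, with a median of 3.17. miR-322-5p, the mouse counterpart of miR-424, was at 5381, 7186 and 8786 CPM in microglia and 356, 558 and 601 CPM in bulk cells (3.83 ± 0.09 SE, limma-voom adjusted p = 4.23e-39). miR-503-5p was at 233, 283 and 333 against 6.67, 14.8 and 23.3 CPM (4.38 ± 0.15). miR-351-5p (319 ± 65.0 against 38.4 ± 7.97 CPM, SD, n = 12), which bears the seed of miR-125, was higher by 3.12 ± 0.13. miR-542-3p (64.5 ± 10.4 against 6.40 ± 2.27 CPM) was higher by 3.44 ± 0.16 and miR-450a-5p (115 ± 17.5 against 10.4 ± 2.54 CPM) by 3.53 ± 0.14. The grouping by genomic neighbourhood was chosen after the values had been seen.

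On the other side, the neuronal miRNAs were lower in microglia almost without exception. Of 36 tested members 34 were lower, beside 23.7% of all features, and none was higher, with a median log2 fold change of -2.30. The 2 that were not called, miR-137-5p and miR-488-5p, had bulk means of 3.70 and 0.508 CPM. The list as a whole held 2.93% ± 1.16 (SD, n = 12) of microglial and 17.4% ± 2.15 of bulk counts, without overlap. miR-124-3p, a promoter of the neuronal programme, was at 11765, 18255 and 44855 CPM in microglia and 89882, 122254 and 147712 CPM in bulk cells. Its highest microglial library was that of male mouse 3, and the next libraries lay well below it. miR-138-5p, which acts on dendritic spine size, was at 1571, 2301 and 3914 against 10993, 12098 and 17576 CPM (-2.37 ± 0.12 SE). miR-132-3p, induced by neuronal activity through CREB, was at 980.2 ± 426 against 6809 ± 1675 CPM (SD, n = 12; -2.80 ± 0.18), and miR-128-3p at 431.2 ± 149 against 2130.3 ± 415 CPM (-2.28 ± 0.15). miR-218-5p (1469 ± 472 against 6315 ± 461.0 CPM), characteristic of motor neurons, was lower (-2.10 ± 0.12) and so was miR-129-5p (154.6 ± 57.7 against 576 ± 75.8 CPM; -1.89 ± 0.14).

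The oligodendrocyte miRNAs miR-219a and miR-338, which act in oligodendrocyte differentiation, were lower in 4 of 8 tested members, beside 23.7% of all features. Among them was the largest difference of all lower calls. miR-219a-5p (hairpins on chromosomes 17 and 2) was at 76.0, 145.9 and 316 CPM in microglia and 2836, 4924 and 6788 CPM in bulk cells (-4.97 ± 0.16 SE, limma-voom adjusted p = 5.81e-33). miR-219a-2-3p was at 188, 321.6 and 737 against 3309.7, 6365 and 8778 CPM (-4.24 ± 0.17). miR-338-3p (chr11:120014765-120014862, intron of Aatk) was at 959, 1239.6 and 1838 against 10021, 14805 and 19842 CPM (-3.40 ± 0.10). The remaining members of the list, miR-219a-1-3p, miR-219b-5p and both arms of miR-3065, were not called and had means under 2 CPM. Of 3 endothelial members 2 were lower and 1 was higher. The lower ones were both arms of miR-126a, from an exon of Egfl7, and the higher one was miR-126b-3p (2.70 ± 0.47), at 0.999 ± 0.609 against 0.0775 ± 0.151 CPM. miR-126a-3p was at 1521, 3017 and 5856 against 10981, 14965 and 19962 CPM (-2.33 ± 0.19).

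Markers of choroid plexus and ciliated cells were split. Their share of counts was 0.525% ± 0.193 in microglia and 1.09% ± 0.203 in bulk cells (SD, n = 12), with overlapping ranges. Of 18 members 10 were lower, beside 23.7% of all features, and none was higher. These 10 were the 4 arms of miR-34b and miR-34c, which act in motile ciliogenesis, and both arms of miR-1298, miR-448 and miR-1264, encoded in introns of the serotonin receptor gene Htr2c. miR-34b-5p was at 30.5, 47.2 and 127.2 CPM in microglia and 365, 549 and 793 CPM in bulk cells (-3.34 ± 0.18 SE), and miR-1298-5p at 6.24, 21.8 and 105 against 156, 289 and 547 CPM (-3.61 ± 0.33). miR-204-5p, abundant in choroid plexus, was not called (4912 ± 1874 against 9110.1 ± 1805 CPM, SD, n = 12; -0.88 ± 0.21). Nor was miR-449a-5p (16.5 ± 8.57 against 30.3 ± 4.53 CPM; -0.92 ± 0.34). Among single lower miRNAs outside these lists, miR-879-5p was at 5.51, 10.3 and 22.1 against 125.5, 147 and 202 CPM (-3.71 ± 0.16), and miR-384-3p at 27.8, 46.8 and 131.9 against 372, 547 and 748 CPM (-3.39 ± 0.16). The 10 largest differences also held miR-12206-5p (-3.87 ± 0.34), miR-344f-3p (-3.62 ± 0.31) and miR-448-3p (-3.57 ± 0.54), all under 3 CPM on average in microglia.

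The largest block of miRNAs on the bulk side came from a single imprinted region. The Dlk1-Dio3 region of chromosome 12 expresses its miRNAs from the maternal chromosome, as part of long transcripts with the noncoding genes Meg3, Rian and Mirg, and is best known in neurons and in pluripotent cells. Of 110 miRNA names from the region, 100 were tested. Among these 87 were lower in microglia, none was higher and 13 were not called. The median log2 fold change was -2.32, against -0.10 over all features. These 87 made up 34.3% of all features lower in microglia, whereas the region supplied 9.33% of the features tested. Its share of counts was 0.633% ± 0.195 (SD, n = 12) in microglia and 4.17% ± 0.667 in bulk cells. The 13 that were not called had bulk means of 0.0277 to 4.51 CPM. The list overlaps with the neuronal one in miR-136, miR-433, miR-485 and miR-770.

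Members from along the whole region took part. miR-136-5p (chr12:109595327-109595388) and miR-127-3p (chr12:109592846-109592915) lie antisense to an exon of the retrotransposon-like gene Rtl1, whose message they silence. miR-136-5p was at 305, 712 and 1244 CPM in microglia and 6010.5, 9299.6 and 13062 in bulk cells (-3.69 ± 0.16 SE, limma-voom adjusted p = 5.81e-24). miR-127-3p was at 1082, 1501 and 3006 against 8038, 10393 and 13818 CPM (-2.66 ± 0.14). Farther along, miR-376a-3p (chr12:109723781-109723848) was at 192, 282 and 490.2 against 1487, 2248 and 3329 CPM (-2.95 ± 0.14), and miR-369-5p (chr12:109743418-109743496, exon of Mirg) at 313, 516 and 1029 against 1937, 2597 and 3576 CPM (-2.31 ± 0.13). In none of these did the fractions overlap, and 77 of the 87 lower members had no overlap in CPM, beside 80.3% of all features called lower and 40.5% of all features. The highest microglial share of the region, 1.16%, was that of male mouse 3, whose neuronal share was also the highest. Without that mouse 89 members were lower.

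**Figure D3:**
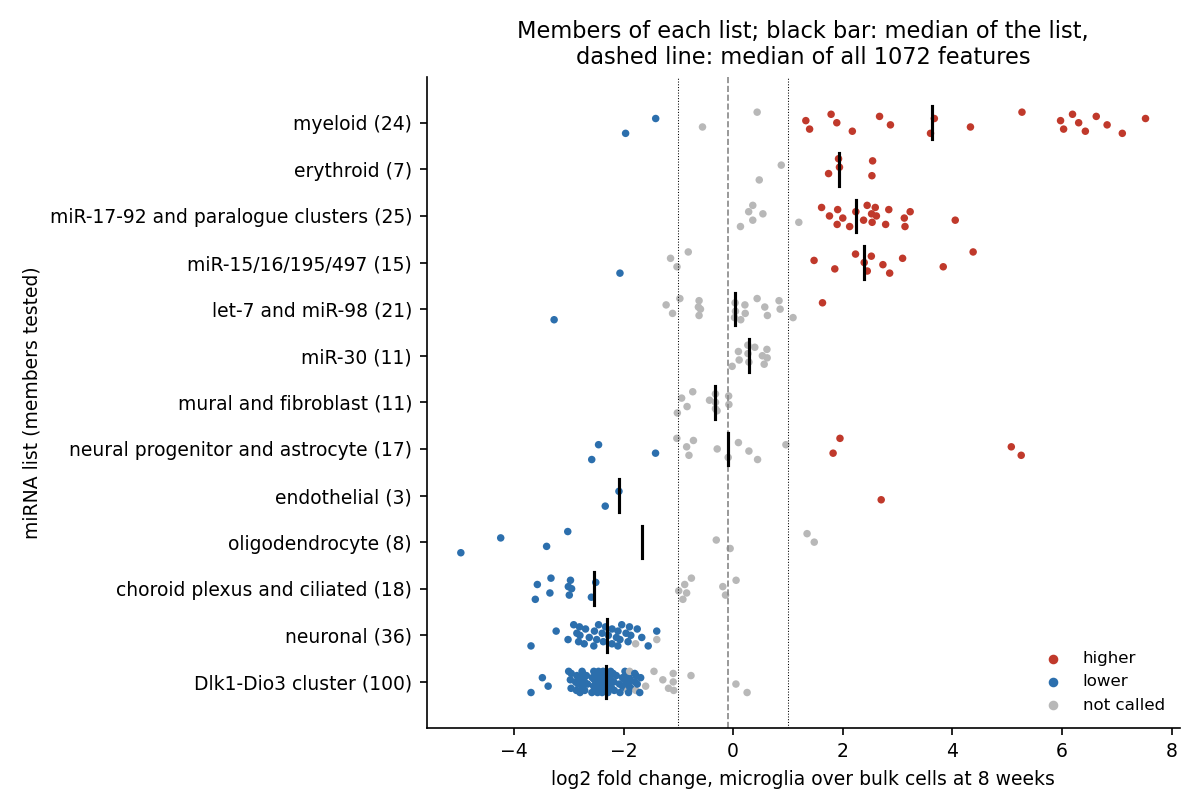
Log2 fold change of microglia over bulk cells at 8 weeks (horizontal axis) for each tested member of 13 miRNA lists (vertical axis), coloured by call. A black bar marks the median of a list and the dashed line the median of all 1072 features at -0.10. The medians are 3.64 for the myeloid list, -2.30 for the neuronal list and -2.32 for the Dlk1-Dio3 region, and the mural and miR-30 lists hold no called member.

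Genomic neighbours were called in 1 direction only. With features read from a single locus, and hairpins on the same strand at most 10000 bases apart joined, 21 clusters had 4 or more tested features. Calls were present in 16 of them, of which 7 held only higher and 9 only lower calls, and none held both. The clusters of miR-195a-5p, miR-182-5p and miR-27b-3p held 1 call each, so that a single direction was fixed for them. That of miR-3102 is 1 hairpin and has no neighbours. Beside the clusters described above, all 5 features of the miR-23a, miR-27a and miR-24-2 cluster on chromosome 8 (chr8:84208518-84208921), which acts in blood cell differentiation, were higher. So were 6 of 9 from the miR-500, miR-501 and miR-362 cluster on chromosome X (chrX:7237683-7248497), with miR-501-3p at 504 against 105.6 CPM (2.32 ± 0.08). The Dlk1-Dio3 region appears in this count as 3 clusters, since gaps in it exceed the distance used. Members of a cluster may share a transcript, which was not tested, and are not taken as independent of each other.

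**Figure D4:**
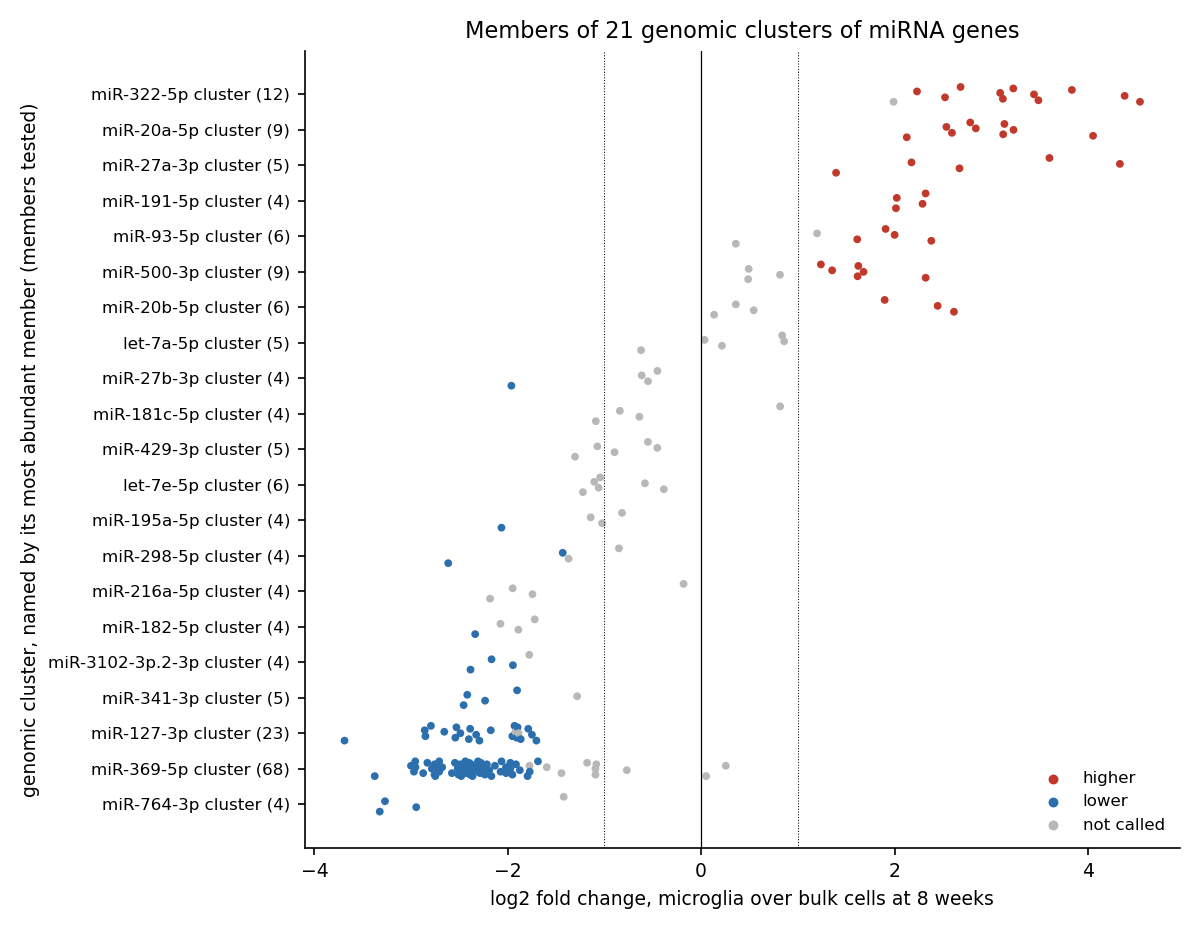
Log2 fold change of microglia over bulk cells at 8 weeks (horizontal axis) for the features of 21 genomic clusters, each named by its most abundant member (vertical axis, ordered by median) and coloured by call. Red points occur in the 7 upper clusters and blue points in 9 of the others, and no cluster holds both colours.

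Some mature miRNAs are encoded by a pair of genes, and the arm that differs between their hairpins can tell the genes apart where no further gene shares it. This does not hold for let-7a-1-3p and let-7c-2-3p, whose sequences are the same and whose bulk counts were equal (421 ± 56.4 CPM each, SD, n = 12). Of 18 such pairs, these arms included, 10 had both arms at 10 CPM or more in at least 1 fraction, and 1 pair was called in opposite directions. The mature miR-181a-5p can come from chromosome 1 or chromosome 2. The arm of the chromosome 1 hairpin, miR-181a-1-3p, did not differ (276 ± 40.4 against 307 ± 36.1 CPM, SD, n = 12; -0.09 ± 0.12 SE). That of the chromosome 2 hairpin (chr2:38852735-38852810), miR-181a-2-3p, was at 52.4, 60.5 and 82.9 CPM in microglia and 1.09, 1.79 and 3.12 CPM in bulk cells (5.07 ± 0.24, limma-voom adjusted p = 2.12e-24). Its neighbour miR-181b-2-3p was likewise higher (20.6 ± 3.55 against 0.683 ± 0.694 CPM; 5.26 ± 0.33), whereas miR-181b-1-3p from chromosome 1 was not called (-1.03 ± 0.22). The strand that both genes share, miR-181a-5p, had a difference of 0.45.

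The pair called in opposite directions was that of miR-24. miR-24-2-5p, from the chromosome 8 cluster, was at 145.3, 213 and 265 CPM in microglia and 37.3, 51.7 and 59.4 in bulk cells (2.17 ± 0.13 SE). miR-24-1-5p, from the paralogous cluster with miR-23b and miR-27b on chromosome 13, was lower, at 3.79, 5.95 and 8.44 against 16.96, 26.8 and 37.2 CPM (-1.96 ± 0.18). miR-27b-3p from that cluster was not called (4217 ± 343 against 6521 ± 1039 CPM, SD, n = 12; -0.55 ± 0.08). In the chromosome 16 host gene Mir99ahg, miR-99a-5p (8658, 9895 and 12998 CPM against 2355, 2796 and 3186) was higher by 1.95 ± 0.07, let-7c-1-3p (18.3 ± 5.45 against 6.00 ± 1.45 CPM) by 1.63 ± 0.17, and miR-125b-2-3p had a difference of 0.96 ± 0.09 that was not called. In the paralogous cluster on chromosome 9, miR-100-5p (102, 147 and 298 CPM against 648, 918 and 1173) was lower (-2.46 ± 0.17), as were miR-100-3p (-2.58 ± 0.21), let-7a-2-3p (0.340 ± 0.494 against 2.67 ± 0.933 CPM; -3.27 ± 0.46) and miR-125b-1-3p (-1.42 ± 0.18, limma-voom adjusted p = 0.0271). miR-125b-1-3p and miR-125b-2-3p are thus a pair of which 1 member was called, and the let-7 arms belong to different mature miRNAs. The call of miR-125b-1-3p was lost under 9 of the alternative settings. These pairs were chosen after their values had been seen.

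As the sequences above show, miR-99a-5p and miR-100-5p share the seed ACCCGUA, as does miR-99b-5p, which was not called (642 ± 121 against 996 ± 119 CPM, SD, n = 12; -0.58 ± 0.10), and miR-10a-5p and miR-10b-5p the seed ACCCUGU. miR-10a-5p (chr11:96317165-96317274, among the Hoxb genes) was at 184, 217 and 324 CPM in microglia and 5.67, 10.9 and 81.7 CPM in bulk cells (4.27 ± 0.30 SE). miR-10b-5p (chromosome 2, in introns of Hoxd3 and Hoxd4) was at 0.402, 5.10 and 21.2 against 7.56, 16.6 and 168 CPM (-1.99 ± 0.43, limma-voom adjusted p = 0.0297), with overlapping ranges, and its call was lost under 7 alternative settings. The mature sequences of each pair differ in few bases, so some reads may be exchanged between them. Of 83 seeds shared by 2 or more tested miRNAs, 7 held calls in both directions. Seeds could be read for 830 of the 1019 annotated features tested.

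In several large families few of the abundant members were called. None of the 10 miRNAs with the let-7 seed GAGGUAG was called, with let-7i-5p the highest (36501 ± 6238 against 17834 ± 2492 CPM, SD, n = 12; 1.09 ± 0.09 SE). None of the 11 tested arms of miR-30 was called, with a range of -0.02 to 0.62. For miR-9-5p, of neural progenitors and astrocytes, the log2 fold change was -0.81 ± 0.16, at 29135, 40245 and 84051 CPM in microglia and 68786, 75996 and 86908 CPM in bulk cells. The highest microglial library was that of female mouse 1, and the next was at 52780 CPM. Of 17 tested members of the neural progenitor and astrocyte list, 4 were higher, 3 lower and 10 were not called. Among all features 21.2% were higher and 23.7% lower. Of the miR-29 family, which represses collagens and other matrix genes, 2 of 7 tested members were higher and 1 lower, close to the share among all features. The higher ones were miR-29a-5p (737 ± 77.0 against 261 ± 37.4 CPM; 1.57 ± 0.09) and miR-29b-1-5p (55.0 ± 16.98 against 17.3 ± 2.68 CPM; 1.67 ± 0.16), and the lower one miR-29c-5p (-1.22 ± 0.09). The more abundant miR-29a-3p was at 26944, 34578 and 39330.0 against 14117, 16078 and 19161 CPM (1.15 ± 0.08, limma-voom adjusted p = 0.0795), and miR-29c-3p was lower in level (2058 ± 221.6 against 4711 ± 400.5 CPM; -1.13 ± 0.07), neither past the threshold. Of the miR-200 family 2 of 8 tested members were higher, beside 21.2% of all features, and none was lower. miR-200c-3p (86.1, 105.7 and 160.1 CPM in microglia against 2.17, 5.94 and 142.3) was called higher by 3.80 ± 0.65, and its chromosome 6 neighbour miR-141-3p by 3.43 ± 0.71, while miR-141-5p was not called (2.15 ± 0.69). The chromosome 4 members miR-200b-3p (-0.45 ± 0.86) and miR-429-3p (-1.07 ± 0.74) were not called. The bulk library of male mouse 2 was the highest for each of miR-200c-3p (142.3 CPM), miR-141-3p (87.3 CPM), miR-200b-3p (138.9 CPM) and miR-429-3p (516 CPM), and without this mouse miR-200c-3p and miR-141-3p remained called higher (4.13 and 3.79).

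Markers of other cells varied with the fraction. Of 7 erythroid miRNAs 5 were higher in microglia, beside 21.2% of all features. The share of counts of these 7 was 1.27% to 4.001% in microglia against 0.270% to 0.629% in bulk cells. miR-451a, the main miRNA of red cells, was at 11021, 20754 and 34978 CPM in microglia and 2182, 3584 and 5058 CPM in bulk cells (2.53 ± 0.20 SE). miR-144-3p from the same cluster was higher by 1.74 ± 0.22. The names miR-486a and miR-486b come from opposite strands of 1 locus and can share reads. Among mural and fibroblast miRNAs 0 of 11 were called, and miR-143-3p was at 2937, 8272 and 15729.9 CPM in microglia and 5779, 10097 and 11894 CPM in bulk cells. The part of these cells in the other differences was not tested. With erythroid miRNAs left out of the scaling 232 features were higher and 251 lower.

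The adult differences were then compared with those at P15 and P6, where the same fractions had been collected from other mice. Of the 227 features higher at 8 weeks, 4 had the opposite sign at P15 and 14 at P6, and 105 were called higher at P6. Of the 254 lower features, 2 had the opposite sign at P15 and 19 at P6, and 103 were called lower at P6. At all 3 ages 97 features were called higher and 98 lower. These ages share no mice, but all entered 1 fit. A change in the difference between fractions does not tell which fraction changed. The difference between fractions itself differed from that at P15 for 36 features, being larger (more positive) at 8 weeks for 16 (1.49%) and smaller for 20 (1.87%). Against P6 it was larger for 71 (6.62%) and smaller for 85 (7.93%). The medians of these age differences over all features were -0.35 and -0.49, and with library size alone -0.21 and -0.64, so that values are best read against them. The split against P15 depended on scaling, with 25 larger and 16 smaller under DESeq2 size factors. Against P6 it was 60 and 109 with library size alone.

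The chromosome X cluster of miR-322 and miR-503 stood out among the differences that grew. Its 12 features had medians of 0.60 (P6), 1.41 (P15) and 3.17 (adult) on the log2 scale, and the difference was larger at 8 weeks than at P15 for 6 of them and larger than at P6 for 10. For miR-322-5p the log2 fold change was 0.71, 1.61 and 3.83 at the 3 ages, with a gain since P15 of 2.22 ± 0.12 (SE, limma-voom adjusted p = 4.25e-12). For miR-503-5p the gain since P15 was 2.16 ± 0.19, for miR-542-3p 2.08 ± 0.20, for miR-322-3p 1.96 ± 0.16, for miR-450a-5p 1.88 ± 0.18 and for miR-351-5p 1.69 ± 0.17. In the chromosome 14 cluster of miR-17 and miR-92a, 3 of 9 features gained since P15 and 6 since P6. miR-17-5p was at log2 fold changes of 0.92, 1.62 and 3.23. Outside these clusters, 3 miRNAs are given here that gained since P15. miR-10a-5p rose from 1.30 at P15 to 4.27 (gain 2.97 ± 0.40), miR-5099 from 0.97 to 3.05 (2.08 ± 0.22), and miR-155-5p from -0.45 to 1.79 (2.24 ± 0.18), the last with a negative difference at both younger ages.

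Since P6, miR-181a-2-3p gained 4.02 ± 0.29 (SE, limma-voom adjusted p = 5.52e-14), miR-181b-2-3p 3.45 ± 0.44 and miR-455-5p 3.34 ± 0.21. Among oligodendrocyte miRNAs, miR-219a-5p went from -1.93 at P6 and -3.91 at P15 to -4.97 at 8 weeks, and miR-338-3p from -1.11 and -2.87 to -3.40. Their change since P6 was past the threshold (-3.04 ± 0.26 and -2.29 ± 0.16) and their change since P15 was not. The Dlk1-Dio3 region went from a median of -1.47 at P6 through -1.68 to -2.32, with 5 of 100 members past the threshold against P6 and none against P15. The share of all features that were smaller at 8 weeks than at P6 was 7.93%, above that of the region, and the median shift over all features was -0.49.

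Other differences shrank or were no longer seen in the adult. miR-2137 went from log2 fold changes of 5.196 (P6) and 3.40 (P15) to -0.41, a change since P15 of -3.81 ± 0.35 (SE, limma-voom adjusted p = 2.42e-09). miR-5121, annotated in an exon of the ribosomal protein gene Rpl13a, went from 4.78 and 3.25 to -0.23, and the candidate chr6_38325 from 4.18 and 2.16 to -0.46. miR-3473b went from 4.65 and 3.76 to 0.75, and miR-3473e from 4.79 and 5.37 to 3.02, but their sequences are near identical and are shared by repeats. The p53-induced miR-34a-5p went from 2.83 and 1.94 to -0.26 and miR-34a-3p from 3.74 and 1.51 to -0.71. Of the miR-29 family, miR-29a-3p went from 3.26 and 3.16 to 1.15, miR-29b-3p from 3.03 and 2.12 to 0.21, and miR-29b-1-5p from 5.68 and 3.73 to 1.67. The decline of each of these against P15 was past the threshold. For miR-3473e the decline since P6 lost its call under 11 alternative settings.

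**Figure D5:**
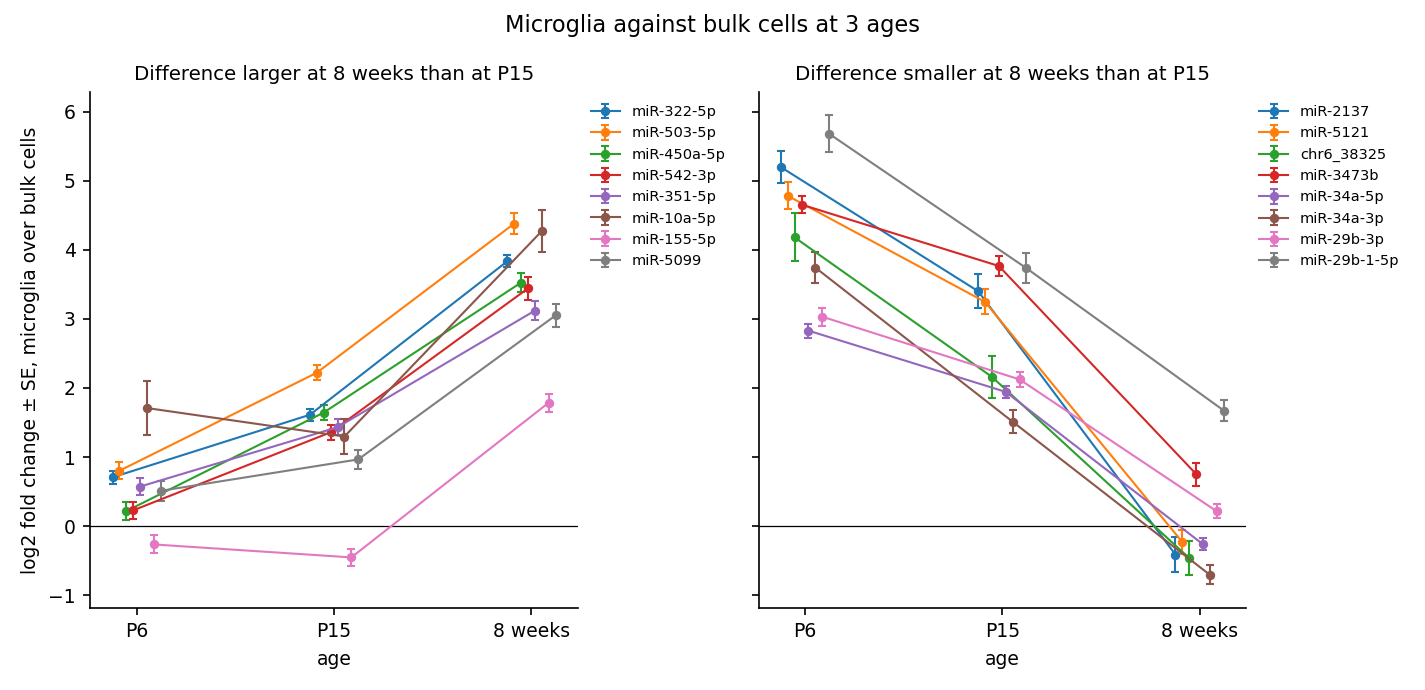
Log2 fold change of microglia over bulk cells (vertical axis, ± SE) at P6, P15 and 8 weeks (horizontal axis) for 8 miRNAs whose difference was larger (left) and 8 whose difference was smaller (right) at 8 weeks than at P15. On the left all end between 1.79 and 4.38 at 8 weeks, and on the right all but miR-29b-1-5p at 1.67 end between -0.71 and 0.75.

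Female and male mice were alike in these comparisons as far as the test could show. No feature differed between the sexes in its difference between fractions (0%), by limma-voom, edgeR or DESeq2. Without the fold change threshold 25 features had an unadjusted p under 0.05 and 0 passed adjustment. All 481 features called at 8 weeks had the same sign in both sexes. They were called on the mean of the female and male differences, which leaves little room for opposite signs. For miR-223-3p the log2 fold change was 6.98 ± 0.20 (SE) in females and 7.22 ± 0.19 in males, and for miR-146a-5p 7.03 ± 0.19 and 6.61 ± 0.19. Females alone gave 193 higher features and males alone 196.

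The balance between the arms of a hairpin was then compared between fractions for 82 precursors with both arms at a mean of 10 CPM or more on both sides. None passed the TREAT test against a 2-fold difference (0%), and none had an unadjusted p under 0.05 in that test. Without the threshold 55 (67.1%) differed at an FDR of 0.05, 34 toward the 5p and 21 toward the 3p arm in microglia, with a median absolute difference of 0.38 on the log2 scale. The extremes, chosen after their values had been seen, were miR-486a (1.06 ± 0.13 SE), miR-669f (1.05 ± 0.11) and miR-497a (1.004 ± 0.12) toward the 5p arm. Toward the 3p arm they were miR-467a (-0.88 ± 0.11), miR-28a (-0.86 ± 0.08) and miR-136 (-0.84 ± 0.09). The 3p arms named miR-467a and miR-467d had the same CPM in both fractions (48.9 and 13.6), so that the value of miR-467a is not the arm balance of a single hairpin.

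Of 53 unannotated candidate miRNAs tested, 18 were higher and 7 lower in microglia, beside 21.2% higher and 23.7% lower of all features. Of the 18 higher ones 4 had at least 10 CPM in microglia, and the median total of the 18 was 134.5 counts over the 24 libraries. Candidates held 0.149% of microglial and 0.380% of bulk counts. Most of both shares was chr6_38156, at 1133 ± 331 CPM in microglia and 3669 ± 430 CPM in bulk cells (SD, n = 12). The shares therefore do not describe the other candidates. chr14_14675 was the most abundant of the higher ones, at 155.1, 191 and 319 CPM in microglia against 12.8, 27.9 and 35.9 in bulk cells (3.05 ± 0.16 SE). chr3_29427 was at 12.5, 21.1 and 30.03 CPM against 0, 0.499 and 0.945 (5.35 ± 0.31, limma-voom adjusted p = 3.38e-20). chr6_38156, the most abundant of the lower ones, was at 717, 1043 and 1674 against 3087, 3672 and 4516 CPM (-1.67 ± 0.11). Candidate names are those of the miRNA discovery tool, and their hairpins were not examined here.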

How the data were processed

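Small RNA of CD45+ and CD45- cells was sequenced from 35 mice. According to the study's methods, the authors trimmed reads with fastp (version 0.20.0 in the submitters' processing notes) and mapped them with miRDeep2 to mature miRNAs and the mouse genome (mm10/GRCm38). The deposited values are raw read counts per miRNA, without molecular identifiers, so intervals and floors cover counting error only.

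The table had 2029 entries under 1885 names. Of 79 repeated names the entry with the largest total was kept, which left 54.1% to 64.8% of the 8-week counts, and 3 candidates with identical counts were dropped. A further 49 annotated names sharing identical counts were kept, so counts of features and shares of counts hold some reads more than once. The 2 P6 libraries of female mouse 6 were set aside, as the study's source data list none of that mouse. The remaining 68 libraries of 34 mice were fitted in 1 model with R 4.3.3, limma 3.58.1 and edgeR 4.0.16, with a filter of 1 CPM in at least 5 libraries, TMM scaling, voom, means for each age, sex and fraction, and mouse as a random effect. TREAT tested against an absolute log2 fold change of 1, with Benjamini-Hochberg adjustment over 1072 features (FDR 0.05). Both libraries of a mouse come from 1 brain, according to the labels. Their deviations correlated weakly (mean r 0.0674 against -0.0135 for other mice of the same sex). Arm balance was log2 of 5p over 3p CPM with 0.5 added, tested with limma. Loci and sequences came from GENCODE and RefSeq on GRCm38.

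CPM values are means ± SD over 12 libraries, and 3 values in a row are the lowest, median and highest library. Named miRNAs were the 10 largest differences each way with at least 10 CPM and 12 of 12 mice, the 10 most abundant in each fraction, the study's qPCR targets, the 5 largest age differences each way, the leading arm ratios and candidates, markers, and up to 4 members of each list or large seed family. Members and lists were chosen with earlier results of these data known, and others named are said to be so. The closest pair of replicate libraries differed by 26.9 in chi-square per degree of freedom, over 60 pairs, so none was taken as a duplicate. The replicates are separate mice. On simulated counts, 36 of 82 features changed by a log2 fold change of 1.5 and 69 of 81 changed by 2.5 were recovered, and no unchanged feature was called. Alternatives were edgeR's quasi-likelihood test, DESeq2 1.42.0, other scalings, filters and entries, thinning, mouse blocks, single sexes and leaving out each mouse.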

Additional observations from a re-analysis of the deposited data

Results flagged for a closer look

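In 4 of 98 groups of 6 libraries or mice, 1 stood apart from the other 5 by Dixon's criterion, which chance meets in about 1 of 20 groups. The microglial library of male mouse 3 held 6.15% of its counts in neuronal miRNAs, against 2.33% to 3.24% in the other males, and 1.16% in Dlk1-Dio3 miRNAs, against 0.571% to 0.739%. The bulk library of female mouse 4 held 1.75% in oligodendrocyte miRNAs, against 2.95% to 3.62%. The bulk library of male mouse 4 held 5.32% in Dlk1-Dio3 miRNAs, against 3.92% to 4.39%.

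For the miRNAs named under the ages, the difference between fractions (log2 fold change, microglia over bulk cells) at 8 weeks differed from that at a younger age in the limma-voom interaction test. Less the value at P15, it was larger for miR-10a-5p (2.97), miR-155-5p (2.24), miR-322-5p (2.22), miR-503-5p (2.16), miR-5099 (2.08), miR-542-3p (2.08), miR-322-3p (1.96), miR-450a-5p (1.88), miR-351-5p (1.69) and miR-17-5p (1.61). It was smaller for miR-2137 (-3.81), miR-5121 (-3.48), miR-3473b (-3.01), chr6_38325 (-2.62), miR-3473e (-2.35), miR-34a-3p (-2.22), miR-34a-5p (-2.21), miR-29b-1-5p (-2.06), miR-29a-3p (-2.01) and miR-29b-3p (-1.91).

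Less the value at P6, it was larger for miR-181a-2-3p (4.02), miR-503-5p (3.58), miR-181b-2-3p (3.45), miR-455-5p (3.34), miR-450a-5p (3.31), miR-542-3p (3.21), miR-322-5p (3.13), miR-10a-5p (2.56), miR-351-5p (2.55), miR-5099 (2.54), miR-322-3p (2.49), miR-17-5p (2.31), miR-20a-5p (2.12) and miR-155-5p (2.05). It was smaller for miR-2137 (-5.61), miR-5121 (-5.01), chr6_38325 (-4.64), miR-34a-3p (-4.45), miR-29b-1-5p (-4.01), miR-3473b (-3.90), miR-34a-5p (-3.09), miR-219a-5p (-3.04), miR-29b-3p (-2.82), miR-338-3p (-2.29), miR-29a-3p (-2.10) and miR-3473e (-1.77).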

How the results depend on the processing

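Without the 2-fold threshold the calls at 8 weeks rose from 481 to 783, of which 227 and 374 were higher, the age differences from 36 to 388 against P15 and from 156 to 575 against P6, and the arm ratios from 0 to 55. All other alternatives left these counts within 1.5-fold. Leaving out each mouse gave 213 to 228 higher and 457 to 483 called features, 32 to 39 against P15 and 152 to 160 against P6, with 0 for the sexes and for the arm ratios. The Dlk1-Dio3 calls ran from 85 to 89 and the neuronal ones from 32 to 34 on leaving out each mouse. No replicate block gave 467 called features, and mouse as a fixed replicate block 471. Of the alternative values for named miRNAs 3959 stayed called or stayed uncalled, 30 lost a call, 60 gained one and no call reversed. Uncalled values that changed sign and stayed uncalled count among the 3959. Those lost belonged to miR-10b-5p, miR-125b-1-3p, miR-183-5p, miR-141-3p, miR-144-3p, miR-146b-3p, miR-21a-3p and miR-27a-3p. Depth limits features under about 1 CPM.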

Other observations

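Further lists give values not placed above. miR-221 and miR-222, which target the cell cycle inhibitor Cdkn1b, had 1 of 4 tested arms lower in microglia and none higher. This is close to the 23.7% lower among all features. miR-222-3p was called (151 ± 33.2 against 509 ± 119 CPM, SD, n = 12; log2 fold change -1.69 ± 0.11 SE) and miR-221-3p was not (63.0 ± 10.5 against 122.5 ± 28.6 CPM; -0.88 ± 0.11). Of 4 tested members of the miR-183, miR-96 and miR-182 cluster, known from sensory epithelia, 1 was lower, beside 23.7% of all features, and 3 were not called. The most abundant, miR-182-5p, was not called (12.2 ± 14.4 against 50.8 ± 56.8 CPM; -1.89 ± 0.52). miR-183-5p was lower (-2.34 ± 0.59), with bulk libraries from 5.52 to 152.8 CPM, and its call was lost under 9 alternative settings.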
